A study of Rattus norvegicus with 9 samples.

Results

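The comparison described is FK1706 against vehicle in the dorsal root ganglia of diabetic rats. It rests on 6 of the study's 9 arrays, chosen by their labels: 3 arrays of STZ-injected rats dosed with FK1706 and 3 of STZ-injected rats dosed with vehicle. All rats were Sprague-Dawley, and those of both groups had been made diabetic by injection of streptozotocin (STZ), which destroys the pancreatic beta cells that make insulin. Lumbar ganglia L4 to L6 were removed once dosing had run for 1, 2 or 3 weeks. Each array holds equal amounts of RNA from 5 rats, so each group has 1 pool a week and the arrays pair by week. The other 3 arrays, of normal rats given vehicle, were scaled and filtered by signal together with these 6. In the models they add to the estimate of the spread, and they are the reference for STZ vehicle against normal. The dose and route of FK1706, the sex and age of the rats and their blood glucose are not given in the sources used here. No group of normal rats was given FK1706, so the difference with the drug can be read in diabetic rats only. A pool of 5 rats averages them, and the spread between single rats was not measured.

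FK1706 is a derivative of the immunosuppressant FK506 that was made to keep the binding to immunophilins and lose most of the immunosuppression. Immunophilins are peptidyl-prolyl isomerases, which ease the turning of proline bonds in proteins, and those that bind FK506 are called FK506-binding proteins (FKBPs). FK506 suppresses T cells through the small protein FKBP12, which as a complex with the drug blocks the phosphatase calcineurin and so keeps NFAT transcription factors out of the nucleus. The effect of such compounds on nerve growth has been tied to FKBP52, a partner of the chaperone HSP90 in steroid receptor complexes, and to signalling through ERK kinases. The dorsal root ganglion holds the cell bodies of sensory neurons, among them the nociceptors that carry pain, wrapped by satellite glia and joined by Schwann cells, fibroblasts, vessels and immune cells. STZ-injected rats are widely used to study painful diabetic neuropathy.

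Values are log2 signals of microarray probe sets, with the 9 arrays brought to 1 scale by quantile normalization, and differences are FK1706 minus vehicle of the same week unless stated. The step was needed because the 2% trimmed mean of the deposited signal was 515, 422 and 365 in the vehicle arrays of weeks 1, 2 and 3 and 465, 407 and 360 in the FK1706 arrays. On the deposited scale the median gene differed by -0.13, -0.04 and -0.02 in weeks 1, 2 and 3, and by -0.07 over the weeks. All differences below are relative to that shift, so a value nearer to 0 than the shift has no settled sign. Arrays correlated with each other at r from 0.969 to 0.981 across probe sets. The number of arrays limits the precision. The p-values measure the spread between pools that remains once week changes shared by the groups are taken out. That spread includes any week change that differs between groups. The ganglion's defining neuronal transcripts were strong on all 6 arrays, with Prph, which encodes the intermediate filament peripherin, between 12.65 and 12.87, and Calca, the precursor of calcitonin gene-related peptide, between 12.59 and 12.66.

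The question of this comparison is which ganglion transcripts differ with the drug once diabetes is present. In limma's moderated test, with week as a block, 0 of 6989 genes passed at an adjusted p under 0.05, which is 0%, and the smallest adjusted p was 0.999. At an unadjusted p under 0.05 there were 218 genes, 3.12% of those tested, 95 higher and 123 lower with FK1706, where 349.45 would be expected if no gene differed. Most differences were small. The median absolute difference was 0.07, which is 1.05-fold, and 90% of genes lay within 0.21, which is 1.16-fold. The 95% interval of the difference lay within 1.5-fold either way for 6473 genes (92.6%) and within 2-fold for 6953 genes (99.5%). For those genes a steady difference beyond these folds would fall outside the measured interval, whereas differences of the size of the median SE, 0.115, could not be told from the spread between pools.

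**Figure D1:**
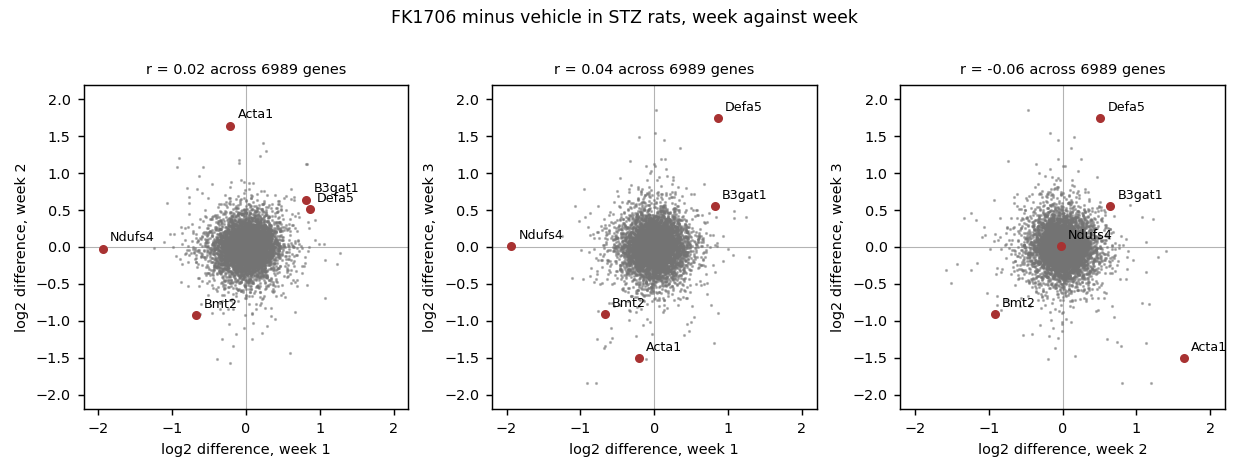
Log2 difference, FK1706 minus vehicle in STZ rats, of each of 6989 genes in 1 week (x axis) against another week (y axis), 1 point per gene. The clouds are round, with r across genes of 0.02, 0.04 and -0.06. Bmt2, B3gat1 and Defa5 keep their side in all 3 weeks, while Acta1 and Ndufs4 stand out in single weeks.

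The weeks did not repeat each other. Genes do not count as replicates of each other. Over all genes tested, the weekly differences correlated with r = 0.02 between weeks 1 and 2, 0.04 between weeks 1 and 3 and -0.06 between weeks 2 and 3. In week 1, 73 genes were at least 1.5-fold higher with FK1706 and 84 at least 1.5-fold lower. In week 2, 70 genes were at least 1.5-fold higher and 78 lower, and in week 3, 101 higher and 107 lower. The share of these sets that had the same sign in another week ran from 35.7% to 59.8%. It was lowest for the 70 genes higher in week 2, of which 25 were higher in week 3, where 48.5% of all genes tested were higher. It was highest for the 107 genes lower in week 3, of which 64 were lower in week 1, where 47.3% of all genes tested were lower. Of the 73 genes higher in week 1, 19 were higher in both later weeks. Over all 3 weeks 860 genes (12.3%) were higher each time and 804 (11.5%) lower each time, and 5325 had mixed signs. The 3 FK1706 values lay wholly above the 3 vehicle values for 227 genes (3.25%) and wholly below for 232 (3.32%).

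Weekly differences of at least 0.32 on the log2 scale, all 3 with the same sign, were found for 20 genes, 5 higher (0.0715% of genes tested) and 15 lower (0.215%). None passed in limma, and 18 of the 20 had an unadjusted p under 0.05. The groups did not overlap for 11 of them. Over all genes tested these shares are 3.12% and 6.57%, but the 20 were chosen by the same weekly differences, so nothing is read from their counts. These genes had dim probe sets, with a median log2 signal of 7.68 against 8.92 for all genes tested, and 3 of the 20 lay above the latter value. Ins1, with a mean of 7.32 over the arrays, was too dim to test. The lower group of Bmt2 (mean 7.03), B3gat1 (7.18) and Defa5 (6.83) was below that. Such genes were tested only because their other arrays were brighter. With no filter on dim genes the count was 113, with only genes above the 60th percentile of signal 5, and with an offset of 50 signal units it was 10. An exact test that flips the sign of each weekly pair cannot give a two-sided p below 0.25 with 3 pairs, so the weekly values are given for single genes. The genes described next are the 12 in each direction whose smallest weekly difference was largest.

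At least 1.5-fold apart in 1 direction in every week was 1 gene, Bmt2. It encodes SAMTOR, a sensor of S-adenosylmethionine that restrains the growth kinase complex mTORC1 when methionine is short. Its deposited signal in weeks 1, 2 and 3 was 207.3, 240.6 and 187.3 in vehicle pools and 110, 115.7 and 92.4 in FK1706 pools. After normalization the log2 signals were 7.65, 8.08 and 7.85 with vehicle and 6.97, 7.16 and 6.94 with FK1706. Every FK1706 pool was below every vehicle pool. The mean difference was -0.83 (SE 0.161, 95% interval -1.19 to -0.48), a 1.78-fold lower signal, with an adjusted p of 0.999 in limma. In normal rats Bmt2 was at 7.60, 7.70 and 7.15, so the vehicle pools of STZ rats were the higher ones of each week and the FK1706 pools the lower ones. Bmt2 is measured by 1 probe set, so no second one can be set beside it, and its FK1706 values were in the range of genes too dim to test.

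Among the genes higher in every week, B3gat1 had the largest smallest weekly difference. Its product is the glucuronyltransferase that makes the HNK-1 carbohydrate carried by adhesion molecules of neurons and Schwann cells. Its deposited signal was 111.8, 115.9 and 142.2 with vehicle and 206, 188.9 and 204.5 with FK1706. The log2 signals were 6.92, 7.15 and 7.46 with vehicle and 7.74, 7.79 and 8.01 with FK1706. All FK1706 pools lay above all vehicle pools, and the differences of 0.82, 0.64 and 0.55 were alike from week to week. The mean was 0.67 (SE 0.149, 95% interval 0.34 to 1.00), or 1.59-fold, with an adjusted p of 0.999 in limma. Normal pools were at 7.12, 7.61 and 7.76, between both STZ groups in each week.

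The promoters of these genes with the widest steady differences are shown because FK506 acts on the NFAT factors, whose core motif is GGAAA, read on the other strand as TTTCC. The 250 bases before each start site come from RefSeq's rat annotation on GRCr8. Matches to the core on either strand are in capitals, 5′ to 3′ on the strand of the gene. The window of Bmt2, chr4:42911547-42911796 on the minus strand, has 2 matches and 65.6% G and C. The window of B3gat1, chr8:33363055-33363304 on the plus strand, has 0 matches and 78.4% G and C.

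Bmt2: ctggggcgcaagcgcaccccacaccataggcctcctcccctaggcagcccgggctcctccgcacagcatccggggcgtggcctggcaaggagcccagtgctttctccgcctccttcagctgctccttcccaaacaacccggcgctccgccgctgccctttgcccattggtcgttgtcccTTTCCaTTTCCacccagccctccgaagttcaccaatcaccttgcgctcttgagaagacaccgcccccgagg

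B3gat1: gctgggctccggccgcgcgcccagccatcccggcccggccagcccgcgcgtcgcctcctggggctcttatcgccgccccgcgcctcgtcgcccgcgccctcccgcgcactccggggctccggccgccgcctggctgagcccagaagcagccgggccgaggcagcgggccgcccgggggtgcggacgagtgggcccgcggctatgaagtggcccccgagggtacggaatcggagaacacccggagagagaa

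The core is short and common, being found in 56.9% of all 33469 rat promoters of this length in the table. Of the 24 genes of the plot of steady differences, promoters were listed for 7 of the higher and 12 of the lower ones. The core was present in 1 of those 7 and 8 of those 12. The cyclic AMP response element TGACGTCA, found in 1.59% of all promoters, was in 0 and 1 of them, and the AP-1 motif TGANTCA, found in 6.34%, in 0 and 0. A match is a run of letters and no evidence of binding.

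The other genes higher in every week belong to unlike processes. Defa5, which encodes an alpha defensin, had the widest mean difference at 1.04 (SE 0.361), or 2.06-fold. Its signals were 6.79, 6.98 and 6.70 with vehicle and 7.66, 7.50 and 8.45 with FK1706. The groups did not overlap, but week 3 gave 1.75 and week 2 gave 0.51, and normal pools ranged from 6.80 to 8.90. Tacr1, the receptor of substance P, had 0.34, 0.52 and 0.36 in weeks 1, 2 and 3, while its second probe set gave a mean of 0.12. Zmat3, an RNA-binding target of p53, was at 9.68, 9.75 and 9.99 with vehicle and 10.02, 10.03 and 10.29 with FK1706. Its 3 differences of 0.34, 0.28 and 0.30 were nearly equal, and the mean of 0.31 (SE 0.0772) is 1.24-fold. Sptssa, a small subunit of serine palmitoyltransferase, the first enzyme of sphingolipid synthesis, had 0.32, 0.29 and 0.38. Both genes had no overlap between the groups.

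Glmn, which encodes glomulin, a protein found through its binding to FKBPs, had a mean of 0.36 (SE 0.115) on the probe set used and 0.08 on its dimmer one. Col2a1, the collagen of cartilage, had 0.27, 0.47 and 0.53, but 0.20, -0.18 and 0.40 on its second probe set. Mfap4, a microfibril protein of the extracellular matrix, had 0.27, 0.48 and 0.49. For both the ranges of the groups overlapped. Tnni1, slow skeletal muscle troponin I, had 0.49 over the weeks, Ighl2 0.53, Gzmk, a granzyme of cytotoxic lymphocytes, 0.40, and Gdf9, a growth factor of the TGF-beta family best known in oocytes, 0.36.

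Among the genes lower in every week, Cxxc5, a zinc finger protein that dampens Wnt signalling, was at 9.43, 9.71 and 8.88 with vehicle and 8.97, 8.82 and 8.09 with FK1706. The pairs differed by -0.46, -0.89 and -0.79, but both groups were lowest in week 3 and their ranges overlapped. Its mean was -0.71 (SE 0.169) on this probe set and -0.10 on the other. Strn, a scaffold of the STRIPAK phosphatase complex, had -0.39, -1.51 and -0.49, and its second probe set -0.01. For these genes the 2 probe sets of the array do not give 1 value. Wwtr1, which encodes the Hippo pathway coactivator TAZ, was at 7.89, 8.02 and 8.04 with vehicle and 7.11, 7.49 and 7.67 with FK1706, with no overlap. Its difference was widest in week 1 at -0.78 and narrowest in week 3 at -0.37.

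Jtb had the most even difference of the 24, with -0.37, -0.35 and -0.34 (mean -0.35, SE 0.0921), and no overlap between the groups. Dnm2, which encodes the membrane-cutting GTPase dynamin 2, had -0.62, -0.91 and -0.36, and Chd9, a chromatin remodeller, -0.50, -0.36 and -0.42. Sgsm2, a Rab GTPase-activating protein, had a mean of -0.47, A4galt, the synthase of the glycolipid Gb3, -0.45, and Tmtc3, an O-mannosyltransferase of the endoplasmic reticulum, -0.50 with an SE of 0.306. Nsmce3, a subunit of the SMC5/6 complex, had -0.44 on the probe set used and 0.07 on a dimmer one, and Pcp4l1 had -0.42.

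**Figure D2:**
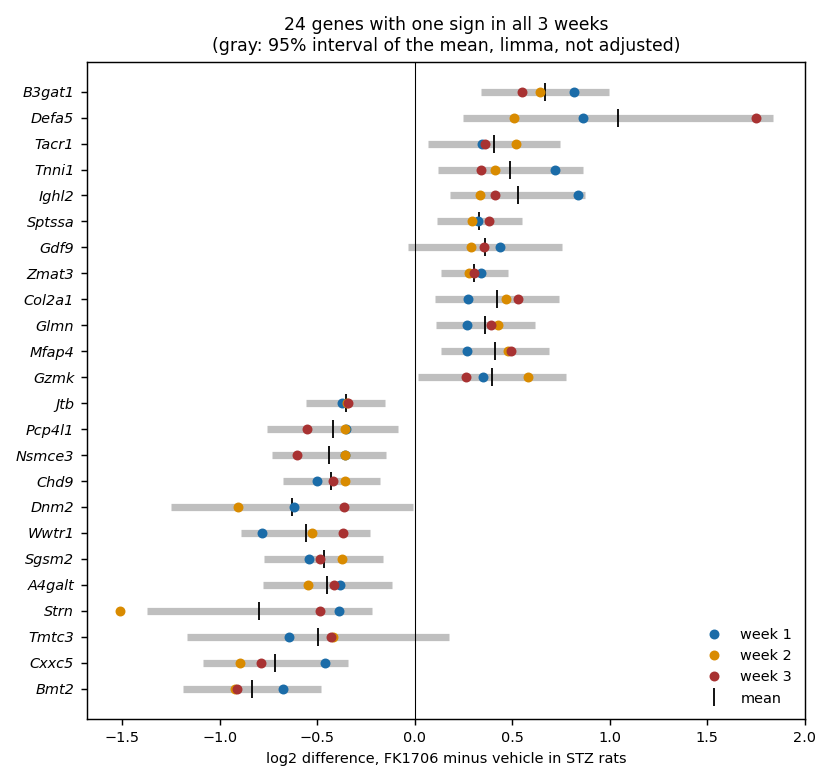
Log2 difference, FK1706 minus vehicle (x axis), of the 12 genes higher and 12 lower in all 3 weeks with the largest smallest weekly difference. Points are weeks, black marks their mean, and gray bars limma's unadjusted 95% interval. Jtb and Zmat3 have nearly equal values in the 3 weeks, while Strn and Defa5 are spread by 1 week each, and no gene passed after adjustment.

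The FKBPs, the drug's own family of binding partners, had transcript differences on both sides of 0. Of 12 on the array, 11 were tested, and 0 passed in limma or had an unadjusted p under 0.05. The median difference was -0.01, as against 0.00 for all genes tested, with 5 higher and 6 lower. Of the 11, 3 were higher in every week (Fkbp1a, Fkbp3 and Fkbp15) and 4 lower in every week (Fkbp1b, Fkbp2, Fkbp5 and Fkbp14). Over all genes tested 12.3% were higher and 11.5% lower in every week, and nothing is read from counts of so few members. Fkbp1a, which encodes FKBP12, was at 11.999, 11.90 and 11.96 with vehicle and 12.02, 12.08 and 12.10 with FK1706. Its FK1706 values lay just above the vehicle values, by a mean of 0.11 (SE 0.0611, 95% interval -0.02 to 0.25), but its other probe sets gave 0.06 and -0.10. Fkbp4, which encodes FKBP52, was at 10.93, 10.63 and 10.77 with vehicle and 10.62, 10.63 and 10.46 with FK1706. The groups overlapped and week 2 showed no difference (-0.32, 0.00 and -0.31, SE of the mean 0.130). Fkbp5, a glucocorticoid-induced co-chaperone, had -0.03, -0.43 and -0.19, with an interval from -0.71 to 0.28.

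Fkbp15, a cytoskeletal member, had the highest mean of the family at 0.30 (95% interval -0.05 to 0.65) and Fkbp14, of the endoplasmic reticulum, the lowest at -0.22. Fkbp2 had -0.34, -0.14 and -0.04, and Fkbp1b, a partner of ryanodine receptors, -0.07. Fkbp8, a mitochondrial member, went from -0.22 in week 1 to 0.06 and 0.48, while a much dimmer probe set went from 1.03 to 0.70 and -0.20. Fkbp3, a nuclear member, had 0.09, Fkbp9 0.02 and Fkbp10, a collagen chaperone, -0.01. Fkbp11 was below the signal filter and was not tested.

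**Figure D3:**
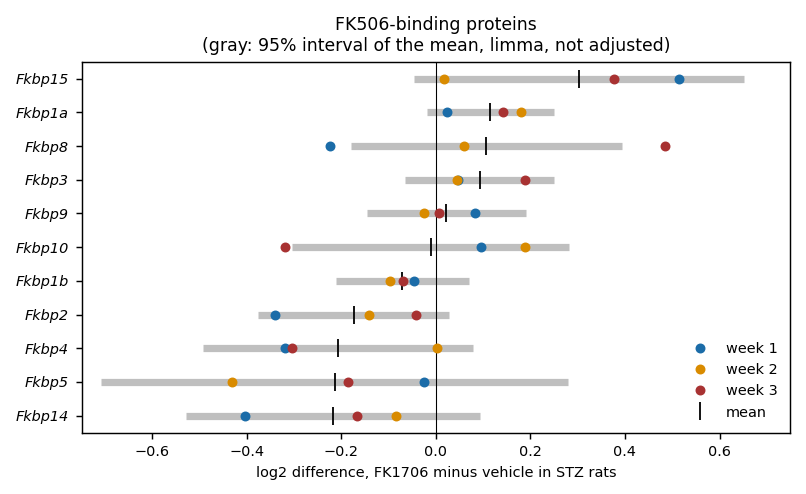
Log2 difference, FK1706 minus vehicle (x axis), of the 11 FK506-binding proteins tested. Points are weeks, black marks the mean and gray bars limma's unadjusted 95% interval. All 11 intervals include 0.

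Other proteins linked to FK506-type drugs also had medians near 0. Of the cyclophilins, the isomerases that bind cyclosporin, 10 were tested with a median of -0.05, 0 passing and 0 at an unadjusted p under 0.05. Ppie, of the spliceosome, had -0.81 in week 1 but -0.08 and -0.02 after it, and Ppil4 had 0.25, 0.62 and 0.12. Calcineurin and NFAT pathway genes had a median of 0.03 over 10 members, with 0 passing and 0 at an unadjusted p under 0.05. Among them Nfatc4, a neuronal NFAT factor, had 0.30, 0.54 and -0.09, Nfat5 had 0.17, 0.11 and 0.09 (a mean of 0.01 on another probe set), and Rcan1, a calcineurin inhibitor that NFAT itself induces, -0.25, 0.03 and -0.16. The HSP90 and steroid receptor complex had a median of -0.01 over 15 members, again with 0 passing and 0 at an unadjusted p under 0.05. Nr3c2, the mineralocorticoid receptor, was at 8.10, 8.30 and 8.42 with vehicle and 8.03, 7.92 and 8.05 with FK1706. Its groups did not overlap, and the mean difference was -0.27 (SE 0.136). Tsc22d3, a glucocorticoid-induced gene, had 0.08, -0.07 and 0.34.

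The mTORC1 pathway, which rapamycin blocks through FKBP12, had a median of -0.01 over 22 members, with 9 higher and 13 lower. None passed. In limma 2 members (9.09%) had an unadjusted p under 0.05, against 3.12% of all genes tested, namely Bmt2 and Deptor, both lower. Deptor, an inhibitor within the mTOR complexes, was at 9.61, 9.79 and 9.77 with vehicle and 9.50, 9.33 and 9.69 with FK1706. Most of its mean of -0.22 (SE 0.0953) came from week 2, at -0.46. Ddit4, a stress-induced inhibitor of mTORC1, had 0.02, 0.28 and 0.30 with no overlap between the groups, and Rptor, the scaffold of the complex, had 0.88 in week 2 but -0.02 and -0.06 in weeks 1 and 3.

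Neurotrophic genes had medians near 0 as well. Ligand genes had a median of 0.00 over 6 tested members of 17 on the array, and 11 were too dim to test. Pspn, which encodes persephin, had 0.11, -0.02 and 0.71, and Nrg1, the axonal signal for Schwann cell growth, -0.45, 0.16 and -0.24. The next 3 probe sets of Nrg1 by signal had means of -0.08, 0.53 and 0.00, so its difference has no settled sign. Receptor genes had a median of -0.01 over 12 members. Ntrk3, the receptor of neurotrophin 3, was at 8.67, 8.84 and 8.60 with vehicle and 7.99, 8.63 and 8.62 with FK1706. Its week 1 FK1706 value stood alone, which left differences of -0.68, -0.20 and 0.02. Ngfr, the p75 neurotrophin receptor, had a mean of -0.01 (SE 0.0729) and Ret, the signalling receptor of the GDNF family, 0.03 (SE 0.0793). Neurotrophin and ERK signalling genes had a median of 0.01 over 16 members. In these 3 lists 0 genes passed in limma and 0 had an unadjusted p under 0.05.

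IGF and insulin signalling had a median of 0.04 over 14 members, none passing in limma. At an unadjusted p under 0.05 there was 1 member (7.14%), against 3.12% of all genes tested. That member was Igf1r, the IGF1 receptor, at 7.87, 7.99 and 8.11 with vehicle and 8.11, 8.46 and 8.38 with FK1706. The groups touched without overlapping, and the mean difference was 0.33 (SE 0.126, 95% interval 0.05 to 0.60). Insr, the insulin receptor, had 0.14, 0.30 and 0.20.

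Markers of sensory neurons differed little between the groups. Nociceptor genes had a median of -0.01 over 17 members, with 8 higher and 9 lower. The signal summed over all 21 on the array ranged from 31218 to 31938 in vehicle pools and from 30797 to 31746 in FK1706 pools. Calca, measured at 12.62, 12.60 and 12.63 with vehicle and 12.59, 12.66 and 12.63 with FK1706, was the same in both groups to within 0.06 in each week. Tac1, the precursor of substance P, was at 11.20, 11.28 and 11.19 with vehicle and 10.93, 11.11 and 11.12 with FK1706. All FK1706 values were below all vehicle values, by a mean of -0.17 (SE 0.0659, 95% interval -0.32 to -0.03). Cartpt, a neuropeptide precursor, was at 8.12, 7.87 and 8.09 with vehicle and 8.20, 8.37 and 8.64 with FK1706, also without overlap, and the mean was 0.37 (SE 0.131). Neither passed in limma (adjusted p = 0.999 for both). They were the 2 members of the list (11.8%) at an unadjusted p under 0.05, against 3.12% of all genes tested. Because the arrays measure whole ganglia, fewer cells of a type and less RNA per cell cannot be told apart.

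Markers of large myelinated neurons had a median of 0.01 over 14 members. Nefh, the heavy neurofilament chain, had 0.12, -0.02 and 0.07, and Thy1, a surface glycoprotein of neurons, -0.15, -0.02 and -0.22. Sodium and calcium channel genes had a median of 0.06 over 11 members, which is below 0 on the deposited scale. Scn9a, the pain-linked channel Nav1.7, had -0.07 and -0.17 in weeks 1 and 2 and 0.75 in week 3, while Scn10a (Nav1.8) had 0.33, -0.06 and -0.03. Potassium and HCN channel genes had a median of -0.01 over 30 members, with Kcnj6, a G protein-gated channel, at -0.07, 0.91 and 0.57. Other probe sets of Kcnj6 had means of 0.18, 0.42 and -0.17, against 0.47 for the one used. Neurotransmitter receptors had a median of 0.01 over 36 members. Chrna7, the alpha 7 nicotinic receptor subunit, was higher in each week without overlap, by 0.07, 0.17 and 0.36. In these 4 lists 0 genes passed in limma and 3 had an unadjusted p under 0.05, namely Thy1, Kcnj6 and Tacr1.

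Growth and transport programs of the axon had small medians. Nerve injury and regeneration genes had a median of -0.03 over 17 members, with 8 higher and 9 lower, and none had an unadjusted p under 0.05 in limma. Npy, a peptide that large neurons start to make after nerve injury, had 0.15, 0.34 and 0.20, with a mean of 0.23 (SE 0.111). Vgf, a growth factor-induced peptide precursor, had 0.04, -0.57 and -0.04. Axonal transport and tubulin genes had a median of 0.01 over 30 members, among them Klc2, a kinesin light chain, at 0.20, 0.22 and 0.02, and Mapt, the microtubule protein tau, at 0.21, 0.08 and 0.06, with means of 0.03 and -0.03 on other probe sets. Synaptic vesicle genes had a median of 0.00 over 27 members. In week 3 alone Syp (synaptophysin) and Vamp2 (synaptobrevin 2) were at 0.63 and 0.67, against -0.00 and -0.05 in week 1. A dimmer probe set of Vamp2 had the reverse pattern, with 0.42, 0.44 and -0.64. Immediate early genes had a median of -0.02 over 13 members. Junb, an AP-1 subunit, was at 7.86, 8.31 and 8.33 with vehicle and 7.90, 7.54 and 7.60 with FK1706. The pools were alike in week 1 and differed by -0.77 and -0.72 in weeks 2 and 3. Its mean was -0.49 (SE 0.170, adjusted p = 0.999 in limma). It was the 1 immediate early gene (7.69%) at an unadjusted p under 0.05, against 3.12% of all genes tested. In the transport and vesicle lists 0 genes were at such a p, and 0 genes of these lists passed in limma.

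Glial transcripts had differences of similar size. Myelinating Schwann cell genes had a median of 0.02 over 15 members (-0.05 on the deposited scale), with 0 at an unadjusted p under 0.05. Pmp22, a myelin protein, had -0.08, 0.00 and -0.12, Prx, which encodes periaxin, -0.06, 0.20 and 0.17, and Sox10, the transcription factor of the lineage, 0.23, 0.30 and -0.03. The list's medians were -0.01, 0.13 and -0.02 in weeks 1, 2 and 3. Satellite glia and non-myelinating Schwann cell markers had a median of -0.01 over 13 members. Apoe, an apolipoprotein abundant in satellite glia, was at 13.63, 13.59 and 13.63 with vehicle and 13.51, 13.51 and 13.58 with FK1706. Its groups did not overlap, although the mean difference was only -0.09 (SE 0.0462).

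Fibroblast and extracellular matrix genes had a median of 0.07 over 42 members, 29 higher and 13 lower, which is 0.00 on the deposited scale. None passed in limma, and 5 of the 42 (11.9%) had an unadjusted p under 0.05, 3 of them higher with FK1706 and 2 lower, where the share of all genes tested was 3.12%. Thy1, counted above among the markers of large myelinated neurons too, was 1 of the 2 lower. Mfap5, a microfibril protein, had 0.43, -0.02 and 0.29, and Fbn1, the microfibril's main protein fibrillin 1, -0.26, 0.01 and -0.68. The second probe set of Fbn1, nearly as bright, had 0.42, -0.17 and -0.01, so neither the sign nor the size was shared. Col1a1, which encodes an alpha chain of collagen I, was at 11.59, 10.98 and 11.19 with vehicle and 11.97, 11.32 and 11.15 with FK1706. It was higher in weeks 1 and 2 and level in week 3 (0.38, 0.34 and -0.04), and on its second probe set in week 2 alone (-0.07, 0.40 and 0.04). The median of the list went from 0.12 in week 1 to 0.04 and 0.00. Of the 7 cartilage and bone genes tested 6 were higher with FK1706, where 3523 of all 6989 genes tested were higher. The median of the 7 was 0.04, or -0.005 on the deposited scale. In limma 0 of the 7 passed and 2 (28.6%) had an unadjusted p under 0.05, against 3.12% of all genes tested. Those higher include Acp5, the acid phosphatase of osteoclasts, at 0.50, 0.38 and 0.21, and Ctsk, a bone-resorbing protease, at 0.65, -0.26 and 0.43. The summed signal of all 17 cartilage and bone genes on the array was 2938, 2410 and 2133 in vehicle pools of weeks 1, 2 and 3. In FK1706 pools it was 3132, 2587 and 2664.

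For vehicle-treated STZ rats against normal rats 7 of 6989 genes passed in limma (0.1%), and 5 of them are genes of collagens or of a matrix protease inhibitor. That count was 0 without the STZ vehicle array or the normal array of week 1 or week 3, and 3 without the STZ vehicle array of week 2. That comparison uses the same STZ vehicle arrays with the opposite sign, so its values and those for FK1706 are given side by side without a test of their relation. Col2a1 had -1.18 for STZ vehicle against normal and 0.42 for FK1706 against STZ vehicle. Col1a1 had -0.82 and 0.22, Col3a1 -0.54 and 0.14, and Col1a2 -0.53 and 0.04. Timp1, an inhibitor of matrix metalloproteinases, had -0.55 and 0.11. Igf1, the trophic factor insulin-like growth factor 1, had -0.79 and 0.10, and its FK1706 pools of 8.79, 8.56 and 8.25 stayed below every normal pool (9.36, 9.22 and 9.09). Txnip, the glucose-induced inhibitor of thioredoxin, had 0.67 and -0.08. Its signals were 11.39, 11.53 and 11.60 with vehicle and 11.42, 11.50 and 11.37 with FK1706, all above the normal pools of 10.70, 10.93 and 10.90.

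Transcripts of skeletal muscle and of neutrophils or mast cells gave the widest list differences of single weeks. The 13 muscle genes tested, of 33 on the array, had medians of -0.29, 0.73 and -0.77 in weeks 1, 2 and 3. The actin of skeletal muscle, Acta1, was at 9.44, 8.47 and 9.91 with vehicle and 9.23, 10.12 and 8.40 with FK1706. The vehicle pool was the lower one in week 2 and the FK1706 pool in week 3, so the groups overlapped and the mean was -0.03 (SE 0.462). Myl1, a myosin light chain, had -0.91, 1.20 and -1.84, Tnnc2, fast troponin C, -0.80, 0.80 and -1.84, and Atp2a1, the calcium pump of fast muscle, -0.77, 0.60 and -1.25. Not all members had this pattern. Tnni1 had 0.72, 0.41 and 0.34. Myh1, a myosin heavy chain, had -0.25, 0.06 and -0.16, and its dimmer probe sets were lower with FK1706 in week 2. The summed signal of all 33 muscle genes ranged from 6083 to 8919 in vehicle pools and from 6125 to 8361 in FK1706 pools. Among normal pools it was 7028, 11643 and 8099. The part of muscle RNA in other differences was not tested.

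Neutrophil and mast cell genes, 6 tested of 14 on the array, had medians of 0.08, -0.24 and 1.496 in weeks 1, 2 and 3. Over the weeks 5 were higher and 1, at -0.04, was lower, where 3523 of all 6989 genes tested were higher. S100a9, a calcium-binding protein of neutrophils, was at 9.37, 10.13 and 9.23 with vehicle and 9.51, 10.06 and 10.68 with FK1706. The pools were alike in weeks 1 and 2, and week 3 joined the lowest vehicle pool to the highest FK1706 pool. Np4, a neutrophil defensin, had 0.02, -0.47 and 1.85, and Tpsb2, a mast cell tryptase, 0.00, -0.16 and 1.54. Summed over all 14, the signal was 1978, 2492 and 1665 in vehicle pools and 2000, 2353 and 3665 in FK1706 pools. In normal pools it was 2331, 3215 and 3157. Thus the week 3 vehicle pool was the lowest and the week 3 FK1706 pool the highest of all 9. None of these genes passed in limma. Its unadjusted p was under 0.05 for 2 of the 6 (33.3%), Defa5 and S100a9, against 3.12% of all genes tested. Their part in other week 3 differences was not tested.

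**Figure D4:**
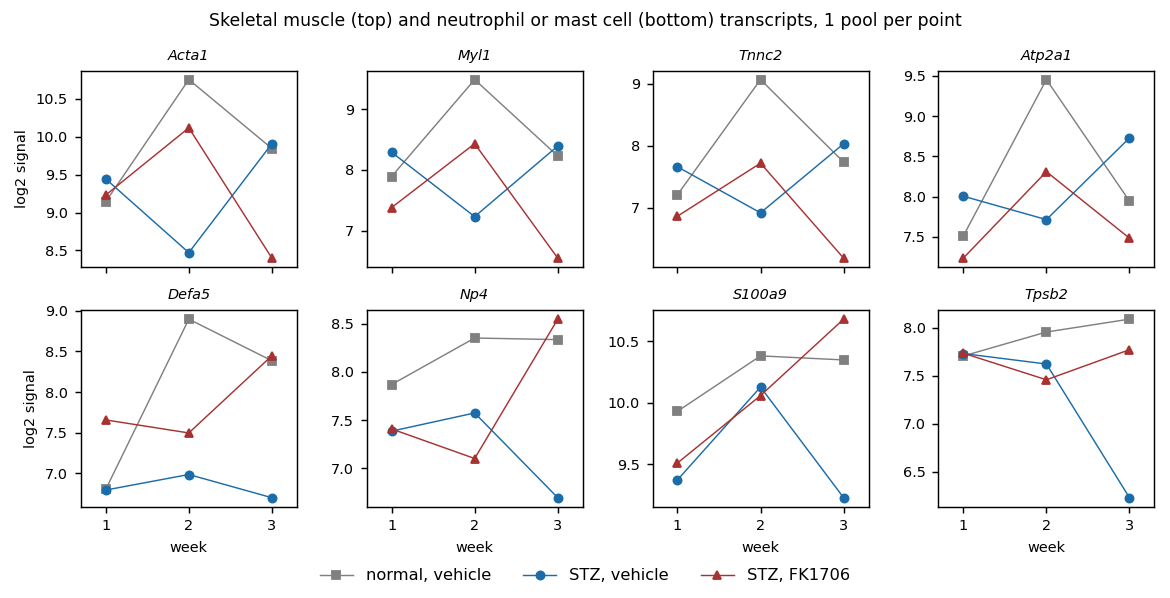
Log2 signal (y axis) of 4 skeletal muscle and 4 neutrophil or mast cell transcripts in each pool by week of dosing (x axis), 1 point per pool of 5 rats, with lines joining pools of 1 group, which are different rats each week. The 4 muscle transcripts shown are above vehicle in the FK1706 pool of week 2 and below it in that of week 3. The 4 neutrophil and mast cell transcripts shown have their lowest vehicle value in week 3.

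Other immune genes had narrower differences. Macrophage markers had a median of 0.05 over 19 members (-0.02 on the deposited scale). Their signal summed over all 23 on the array ranged from 15839 to 16977 in vehicle pools and from 15865 to 17338 in FK1706 pools. RT1-Ba, a class II histocompatibility chain, had 0.13, 0.43 and 0.47 on the probe set used, with a mean of 0.04 on another, and Aif1, a marker of activated macrophages, 0.45, 0.33 and 0.15, with -0.18 on another. Csf1r, a receptor of macrophages, went the other way with -0.09, -0.14 and -0.40. Of the 19 macrophage markers 12 were higher and 7 lower. Interferon-stimulated genes had a median of 0.09 over 19 members, 13 higher and 6 lower. Against the run of that list, Mx2, an antiviral GTPase, was at 7.71, 8.41 and 7.79 with vehicle and 7.40, 7.52 and 7.13 with FK1706. Its groups did not overlap, and the mean was -0.62 (SE 0.184), with -0.46 on a second probe set. Cytokine and NF-kB response genes had a median of 0.03 over 12 members, with Icam1, a leukocyte adhesion molecule, at 0.09, -1.03 and -0.63. Of these 3 lists 0 genes passed in limma, and RT1-Ba, Mx2 and Icam1 were those at an unadjusted p under 0.05. Only 4 lymphocyte markers were bright enough to test, 2 higher and 2 lower. Cd3g, a chain of the T cell receptor complex, had -0.74, 0.08 and -0.50, and Lck, a kinase of T cells, 0.17, 0.57 and -0.18. Endothelial and mural cell markers had a median of -0.02 over 15 members, with Cldn5, of the vessel barrier, at 0.04, 0.18 and 0.13. Of the red blood cell genes 2 were tested, and Hbb, a globin chain, had -0.05, -0.30 and 0.38. Adipocyte markers had a median of 0.00 over 6 members. Cell cycle genes had 0.00 over 14, with 7 higher and 7 lower. Of the replication helicase, Mcm4 was at 0.32, 0.15 and 0.56 and Mcm7 at -0.33, -0.05 and -0.86.

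Energy metabolism genes differed little. Respiratory chain and ATP synthase genes had a median of 0.01 over 52 members, 28 higher and 24 lower, with 0 at an unadjusted p under 0.05. Their 1 wide value was Ndufs4, a subunit of complex I, which was at 8.49, 8.59 and 8.59 with vehicle and 6.55, 8.56 and 8.60 with FK1706. Only the week 1 FK1706 pool was low, by -1.94, the widest single difference named for week 1. Glucose entry, polyol and glycolysis genes had a median of -0.02 over 26 members. Akr1a1, an aldehyde reductase, had -0.22, -0.10 and -0.07, and Pgam1, a glycolytic mutase, -0.18, -0.05 and -0.07, both without overlap. Fat oxidation and PPAR target genes had a median of 0.07 over 27 members (0.01 on the deposited scale), 20 higher and 7 lower. Acads, the short-chain acyl-CoA dehydrogenase, was higher in each week by 0.36, 0.16 and 0.21 without overlap. Cholesterol synthesis genes had a median of -0.05 over 21 members, 7 higher and 14 lower, with Insig1, a sterol sensor partner, at -0.18, -0.30 and -0.07 and Sqle, squalene epoxidase, at -0.08, -0.39 and -0.04. In fatty acid synthesis, with a median of 0.00 over 23 members, Elovl6, a fatty acid elongase, had -0.29, -0.29 and -0.08. In these 5 lists 0 genes passed in limma, and Acads, Insig1 and Elovl6 had an unadjusted p under 0.05.

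Stress programs had small medians too. Antioxidant and glutathione enzymes had a median of -0.02 over 36 members. Cat, which encodes catalase, was at 10.12, 10.18 and 10.15 with vehicle and 10.48, 10.34 and 10.35 with FK1706. Its groups did not overlap, and the mean was 0.24 (SE 0.0815, 95% interval 0.06 to 0.42), without passing in limma (adjusted p = 0.999). Unfolded protein and amino acid stress genes had a median of -0.03 over 27 members, 9 higher and 18 lower. Ddit3, which encodes the stress factor CHOP, had -0.21, -0.47 and -0.08 without overlap. Heat shock protein genes had a median of 0.05 over 20 members, 16 higher and 4 lower, which is -0.03 on the deposited scale, and Hspe1, the mitochondrial co-chaperonin, had 0.17, 0.09 and 0.08. Cytosolic ribosomal protein genes had a median of 0.00 over 39 members and proteasome subunits -0.02 over 31. Circadian clock genes had a median of 0.04 over 10 members (-0.03 on the deposited scale), with Cry2, a clock repressor, at 0.44, 0.02 and 0.27. Apoptosis genes had a median of 0.01 over 12 members, with Cflar, an inhibitor of caspase 8, at -0.60, -0.46 and -0.20. In these 7 lists 0 genes passed in limma, and Cat, Cry2, Ddit3 and Cflar had an unadjusted p under 0.05.

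**Figure D5:**
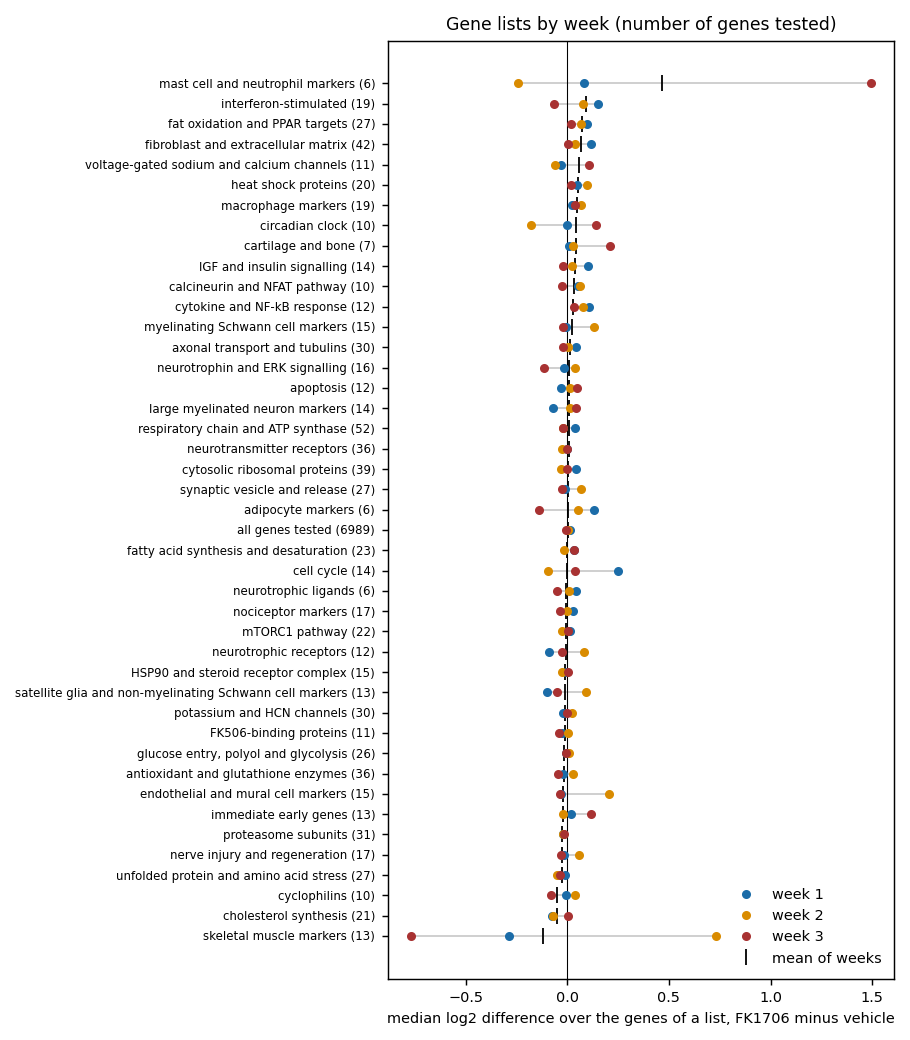
Median log2 difference, FK1706 minus vehicle (x axis), over the tested genes of each list, with the number of genes in brackets. Points are weeks and black marks the mean of weeks per gene, then the median. Muscle and neutrophil or mast cell lists are spread across weeks, and 40 of the 42 lists with at least 5 genes tested have a median over weeks within 0.1 of 0.

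Over all 42 lists with at least 5 genes tested, 40 had a median within 0.1 of 0, and the exceptions were the muscle list (-0.12) and the neutrophil and mast cell list (0.46). The 3 weekly medians had 1 sign in 9 lists. The share of a list's members higher in all 3 weeks was highest for IGF and insulin signalling (4 of 14, 28.6%), cartilage and bone (2 of 7, 28.6%) and the FKBPs (3 of 11, 27.3%). The share lower in all 3 weeks was highest for the FKBPs (4 of 11, 36.4%), cholesterol synthesis (5 of 21, 23.8%) and proteasome subunits (7 of 31, 22.6%). Over all genes tested these shares are 12.3% and 11.5%, and in lists this short 1 gene moves the share by several percentage points. In limma 3.12% of all genes tested had an unadjusted p under 0.05, and nothing is read from counts of these in single lists.

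Whether the difference with the drug grew or shrank over the weeks was tested with a linear week term, which leaves 2 residual degrees of freedom. In limma 0 of 6989 genes passed (0%), and the smallest adjusted p was 0.999. An unadjusted p under 0.05 was found for 243 genes, where 349.45 would be expected if no gene changed. The genes with the largest moderated t toward FK1706 over time included Trappc10, of a vesicle tethering complex, at -0.90, -0.17 and 0.27 in weeks 1, 2 and 3. Its second probe set ran the other way, with 0.02, -0.21 and -0.73. Pccb, a subunit of propionyl-CoA carboxylase, had -0.68, -0.16 and 0.38, and Kcna6, a potassium channel, -0.77, -0.11 and 0.56. In the other direction Nes, which encodes the intermediate filament nestin, had 0.44, -0.01 and -1.04. Dpp9, a dipeptidyl peptidase, had 0.86, 0.00 and -0.89, and Hspb1, the small heat shock protein HSP27, 0.60, 0.06 and -0.27. Hspb1 was at 11.27, 11.29 and 11.57 with vehicle and 11.87, 11.35 and 11.30 with FK1706, so the order of the groups turned between weeks 1 and 3. The count rests on few arrays, being 26 without the week 1 vehicle array, which leaves 1 residual degree of freedom. It was 4 without the week 2 or the week 3 vehicle array, 2 without the week 3 FK1706 array and 1 without any of the normal arrays or with the 6 STZ arrays only.

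Single weeks held wide differences that other weeks lacked. In week 1 the highest were Rbmx, an RNA-binding protein (1.28, then -0.08 and -0.14), and Haus4, of the augmin complex of the spindle (1.24, then -0.24 and 0.41). Gal, the injury-induced neuropeptide galanin, was among the 5 lowest in week 1 at -1.07 and had 0.60 and 0.55 later. In week 2 Ndrg3 had 1.41 and Uaca 1.30, while Boc, a hedgehog co-receptor, had -1.58 and Atg5, an autophagy protein, -1.34. In week 3, besides neutrophil, mast cell and muscle genes, Mief1, a mitochondrial fission factor, had 1.49 and Scarb1, the HDL receptor, -1.51. The second probe set of Scarb1, of nearly the same signal, had -0.01 in that week. With 1 pool per group and week these values have no replicate check.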

How the data were processed

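Dorsal root ganglion RNA was measured on 9 one-colour arrays of 15923 probe sets, 1 pool of 5 rats for each of 3 groups in weeks 1, 2 and 3. The deposited values are linear intensities, 1 per probe set, and were made with MAS5 per the submitters' processing notes. Its version and scaling are not given there. To each value 18.7 was added (the 10th percentile over all arrays), log2 was taken and all arrays were quantile-normalized. The 57 control probe sets were then dropped. The platform annotation gave 1 symbol for 12783 of the 15866 left, several for 312 and none for 2771, and 12748 matched the GRCr8 gene table. Each of 10411 genes was read from its brightest probe set, and 6989 reached the 40th percentile of probe-set means and were tested. Fkbp11, Ins1 and Ins2 did not.

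Groups were compared with limma 3.58.1 in R 4.3.3, using lmFit and a trended eBayes prior. The model held group and week, with 4 residual degrees of freedom, and p-values are two-sided with Benjamini-Hochberg adjustment over all genes tested and a threshold of 0.05. The change over weeks used a linear term for each STZ group. The model of group and week was run on simulated data, and the model of the change over weeks was not. Week blocks the arrays because it is a factor of the design. After removal of group means, the vehicle and FK1706 arrays of weeks 1, 2 and 3 correlated at 0.287, 0.0286 and 0.325 across genes.

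The named genes are the 12 per direction with 1 sign in all weeks and the largest smallest weekly difference, genes from the 5 highest and lowest of each week and of the change over weeks, up to 4 members per list by moderated t, the FKBPs, Ngfr, Ret and the genes passing for STZ vehicle against normal. Prph and Calca, a tissue check, were chosen after their values were seen. The members and the 44 gene lists were chosen with earlier results of these data known. Alternatives changed the scaling, offset, filter, probe set rule, arrays, block and prior. Promoters come from RefSeq (GRCr8).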

Additional observations from a re-analysis of the deposited data

How the results depend on the processing

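For FK1706 against vehicle in STZ rats 0 genes passed in limma under each of the 23 alternatives run, the fit without the replicate block of week included. Genes with unadjusted p-values under 0.05 numbered 133 to 387 over these settings and 169 without the block. For STZ vehicle against normal 16 genes passed on the deposited scale, 3 with the mean of all probe sets of a gene, 1 without the replicate block, 0 with no filter and 0 with a prior without a trend. The change over weeks gave 1 gene with the 6 STZ arrays only. The count of genes apart by 0.32 or more on the log2 scale in every week was 10 with an offset of 50, 113 with no filter and 5 with the filter at the 60th percentile. Leaving out 1 array or 1 week gave 0 to 6 genes for STZ vehicle against normal and 0 to 26 for the change over weeks, which could not be fitted without a week. It gave 20 to 112 for the genes apart in every week, since fewer weeks then have to share a sign when an STZ array is left out.

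Some small gene values changed sign. On the deposited scale Hbb was at -0.023, Fkbp9 at -0.054 and Ret at -0.048, and with arrays at one trimmed mean Fkbp10 was at 8.4e-05. With the mean of all probe sets Nrg1 was at 0.013 and Ret at -0.018. Over the settings that leave out 1 array or 1 week, the difference ranged from -0.060 to 0.050 for Ngfr, -0.023 to 0.094 for Ret, -0.047 to 0.18 for Scn10a, -0.12 to 0.33 for Scn9a, -1.01 to 0.025 for Ndufs4, -0.027 to 0.38 for Vamp2 and -0.32 to 1.2e-04 for Vgf. It ranged from -0.016 to 0.043 for Fkbp9, -0.37 to 0.064 for Fkbp5, -0.099 to 0.27 for Fkbp8, -0.11 to 0.14 for Fkbp10, -0.037 to 0.45 for Rptor, -0.070 to 0.13 for Col1a2 and -0.14 to 0.0030 for Txnip. For markers of other cells it ranged from -0.096 to 0.77 for Tpsb2, -0.23 to 0.93 for Np4, -0.17 to 0.17 for Hbb and -1.39 to 0.0021 for Tnnc2. Of the 22 list medians above 0, 18 were below 0 on the deposited scale and 0 at one trimmed mean. Of the 20 below 0, 0 and 5 were above 0 under these scales. Apart from the fewer weeks and arrays named above, the cause of these changes was not tested. The deposited signals used here carry no background value, so dim genes were judged by the filter alone.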
